A study of Mus musculus with 12 samples.

Results

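The genes described here are 10 that make and store glucose in liver: Pck1, Pck2, G6pc, Slc37a4, Fbp1, Pcx, Ppargc1a, Gys2, Pygl and Slc2a2. They were chosen by name from knowledge of the pathway, with earlier results of these data known. They were read in 2 deposited tables of gene counts, in which all 10 of the 10 were found among 23420 genes. The study measured poly(A) RNA by sequencing in liver of C57BL/6 mice, in 12 libraries that form 4 groups of 3. Tsc1/p62Δhep livers had floxed alleles of both Tsc1 and Sqstm1, the gene of p62, and Cre recombinase under the albumin promoter (Alb-Cre), which is active in hepatocytes. Tsc1Δhep livers had floxed Tsc1 and Alb-Cre and kept p62. Both of these groups thus lacked Tsc1 in hepatocytes. p62Δhep livers had floxed Sqstm1 and Alb-Cre and kept Tsc1. p62F/F livers had floxed Sqstm1, no Cre and both genes intact. Other cells of the liver keep the floxed genes. Since p62F/F alone lacked Cre, p62Δhep and p62F/F differ by Cre as well as by p62, and the effects of both cannot be told apart. The sources used here do not give age or feeding state at collection. A low-fat chow and a high-fat diet are mentioned but not tied to any sample.

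Hepatocytes make glucose from lactate, amino acids and glycerol, and release it into blood during fasting. Pyruvate carboxylase (Pcx) makes oxaloacetate, the phosphoenolpyruvate carboxykinases of the cytosol (Pck1) and of mitochondria (Pck2) turn it into phosphoenolpyruvate, and fructose-1,6-bisphosphatase (Fbp1) acts further along. Glucose 6-phosphate is then carried into the endoplasmic reticulum by the transporter encoded by Slc37a4, and glucose-6-phosphatase (G6pc) cleaves it to free glucose. The transporter GLUT2 (Slc2a2) moves glucose across the cell membrane. Liver glycogen synthase (Gys2) stores glucose as glycogen and liver glycogen phosphorylase (Pygl) breaks it down. Glucagon and insulin set the transcription of several of these genes through CREB, FOXO1 and the coactivator PGC-1α (Ppargc1a). p62 is an adaptor of selective autophagy, and TSC1 restrains the growth kinase mTORC1.

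The promoters of 3 genes are printed because Pck1 and G6pc on the one hand and Pck2 on the other changed in opposite directions between the groups without Tsc1. Each sequence is the 250 bases before the RefSeq start of the gene in GRCm38.p6, on the + strand. RefSeq promoter entries were found for 9 of the 10 genes, in 12 windows. Gys2 (chr6:142422613-142473109 in GRCm38, on the - strand) had no entry. Capitals mark matches, on either strand, to the core of a cAMP response element (TGACG), the core of insulin response elements bound by FOXO factors (TGTTTT), the C/EBP-ATF response element (TGATGNAAN) and the TATA box (TATAAA). Of 32841 mouse promoter windows of the same length, 17.8%, 19.8%, 3.43% and 12.4% held these motifs, in that order.
Pck1, chr2:173152823-173153072: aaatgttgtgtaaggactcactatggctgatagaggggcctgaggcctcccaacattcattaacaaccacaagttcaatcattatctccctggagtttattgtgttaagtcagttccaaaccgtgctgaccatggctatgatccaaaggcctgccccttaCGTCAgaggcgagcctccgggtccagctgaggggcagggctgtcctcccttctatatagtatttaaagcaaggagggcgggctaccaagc
G6pc, chr11:101367466-101367715: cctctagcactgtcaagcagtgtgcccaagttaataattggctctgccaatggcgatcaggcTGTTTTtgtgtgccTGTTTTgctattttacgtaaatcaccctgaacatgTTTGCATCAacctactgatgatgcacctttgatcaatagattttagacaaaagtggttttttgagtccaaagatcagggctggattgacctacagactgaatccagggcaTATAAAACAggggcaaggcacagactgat
Pck2, chr14:55540016-55540265: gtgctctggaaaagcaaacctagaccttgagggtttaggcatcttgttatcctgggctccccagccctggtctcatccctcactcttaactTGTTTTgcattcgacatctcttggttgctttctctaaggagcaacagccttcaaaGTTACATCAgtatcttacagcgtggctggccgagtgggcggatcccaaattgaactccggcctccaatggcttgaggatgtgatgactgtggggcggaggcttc
Positions are counted back from the first transcribed base. In Pck1 the match is the reverse complement of the cAMP response core, beginning 90 bases upstream. In G6pc the insulin response core begins 188 and 174 bases upstream, and its reverse complement 26 bases upstream shares bases with the TATA box that begins 29 bases upstream. G6pc also has the C/EBP-ATF element in reverse 139 bases upstream. In Pck2 the insulin response core begins 159 bases upstream and the C/EBP-ATF element lies in reverse, beginning 104 bases upstream. Matches to the cAMP response core were also found in the windows of Ppargc1a (49 bases upstream), Pygl (44) and Slc37a4. Slc37a4 has windows of different starts that overlap. Its match 61 bases before the first start is the same site as that 214 bases before the next start. Another match lay 82 bases before that next start. These matches are letters in a window and not measured binding.

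Each library held 15792048 to 33377247 counts, with 14487 to 15681 genes detected. Levels are given as CPM, the count of a gene relative to its library's total in units of 1e+06 counts, after scaling by TMM within a table. Sqstm1 stood at 12.4 to 19.8 CPM in the 6 libraries that lack it and at 316 to 1210 CPM in the other 6. Tsc1 stood at 13.7, 11.9 and 9.35 CPM in Tsc1/p62Δhep, against 5.76, 5.39 and 10.9 CPM in Tsc1Δhep. The ranges of these groups overlapped, and the part of their Tsc1 levels in the changes below was not tested. In the 6 libraries of p62Δhep and p62F/F, Tsc1 stood at 26.0 to 39.7 CPM. None of the 12 hepatocyte markers examined was at 0 in any group. Whether replicate libraries stem from different animals is not stated, so the p-values reflect only library-to-library spread, possibly technical.

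**Figure D1:**
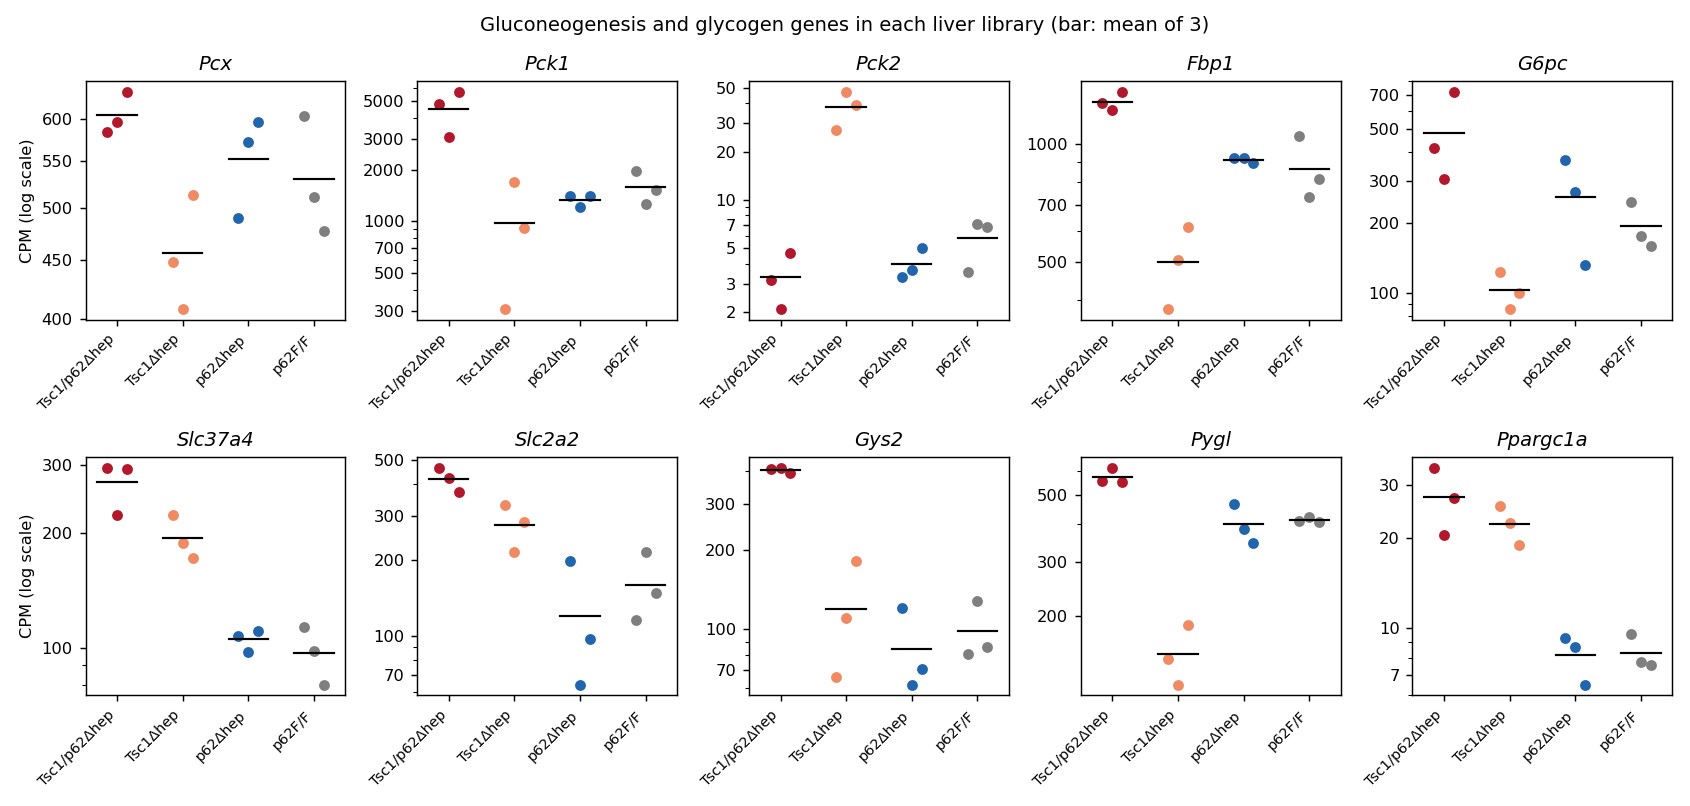
CPM of each of the 10 genes in each library (points, log axis, scaled within a table), by group, with a bar at the mean of 3. Pck2 stands between 27.2 and 47.1 CPM in Tsc1Δhep and at 7.03 CPM or below elsewhere, and Gys2 stands between 394 and 413 CPM in Tsc1/p62Δhep and at 182 CPM or below elsewhere.

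The comparison of Tsc1/p62Δhep with Tsc1Δhep shows what accompanied the absence of p62 in hepatocytes without Tsc1. Pck1, Fbp1, G6pc, Gys2 and Pygl rose 2.57-fold to 4.67-fold and Pck2 fell 11.4-fold in Tsc1/p62Δhep. Slc37a4, Pcx, Slc2a2 and Ppargc1a did not pass the test. Thus 5 of 10 genes were higher and 1 of 10 lower at an adjusted p below 0.05 (edgeR's quasi-likelihood test, Benjamini-Hochberg adjustment over all genes), where 9.25% of the 12620 genes tested were higher and 14.9% lower, 24.2% in all. DESeq2 called 6 higher and 1 lower, where it called 32.9% of all genes. The median log2 fold change of the 10 was 0.99, beside -0.05 over all genes. The 10 genes were chosen with earlier results of these data known, so setting them beside all genes is a description. With TMM the ranges of the groups did not overlap for 9 of the 10 genes, 8 higher and 1 lower. This held for 22.3% of all genes as higher and 23.4% as lower, 45.7% in all. With libraries scaled by their totals alone, the ranges of Pcx, Slc37a4 and Slc2a2 also overlapped.

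The number of these genes called higher depended on single libraries. It was 3 without Tsc1/p62Δhep library 1 or library 2, and 4 or 5 without each of the other 4 libraries. The calls of Fbp1, G6pc, Pygl and Pck2 held in each of these 6 fits. The calls over all genes ranged more widely, with 351 higher and 760 lower without Tsc1/p62Δhep library 1, and 2686 higher and 3139 lower without Tsc1Δhep library 3. Tsc1 stood at 10.9 CPM in Tsc1Δhep library 3 and at 5.76 and 5.39 CPM in libraries 1 and 2.

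The steps that lead from pyruvate to phosphoenolpyruvate came first. Pcx had 584, 596 and 633 CPM in the Tsc1/p62Δhep libraries, against 449, 408 and 514 CPM in the Tsc1Δhep libraries. The groups did not overlap with TMM and did with library totals. The log2 fold change of 0.40 ± 0.21 (SE) did not pass (adjusted p 0.192 by edgeR).

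Pck1 had 4790, 3102 and 5671 CPM in Tsc1/p62Δhep, against 310, 1702 and 910 CPM in Tsc1Δhep. The lowest Tsc1/p62Δhep library stood above the highest Tsc1Δhep library, with means of 4521 ± 1306 CPM in Tsc1/p62Δhep and 974 ± 698 CPM in Tsc1Δhep (SD, n = 3 each). Pck1 rose 4.64-fold, with a log2 fold change of 2.21 ± 0.59 and an adjusted p of 0.0313 by edgeR. Its call was lost in 5 of the 14 alternatives tried. These were the fits without Tsc1/p62Δhep library 1 (edgeR adjusted p 0.0946), library 2 (0.0631) or library 3 (0.0872), and that with a replicate block (0.0541). The call was also lost when Tsc1Δhep library 3 and Tsc1/p62Δhep library 1 were left out together (0.107). The log2 fold change stayed between 1.80 and 2.88 over the alternatives.

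Pck2 had 3.18, 2.10 and 4.67 CPM in Tsc1/p62Δhep, against 27.2, 47.1 and 39.2 CPM in Tsc1Δhep. Every Tsc1Δhep library was far above every Tsc1/p62Δhep library. Pck2 fell 11.4-fold (log2 fold change -3.51 ± 0.37, edgeR adjusted p 0.00147), a call that held under all 14 alternatives tried.

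The later steps of glucose production showed the same split between genes that rose and genes that did not pass. Fbp1 had 1272, 1220 and 1358 CPM in Tsc1/p62Δhep, against 379, 505 and 614 CPM in Tsc1Δhep, with no overlap. It rose 2.57-fold (log2 fold change 1.36 ± 0.26, adjusted p 0.00957 by edgeR).

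G6pc had 417, 307 and 722 CPM in Tsc1/p62Δhep, against 123, 85.8 and 100 CPM in Tsc1Δhep, again with no overlap. It rose 4.67-fold (log2 fold change 2.22 ± 0.36, adjusted p 0.00593 by edgeR). Slc37a4, whose transporter supplies the G6pc enzyme, had 296, 222 and 294 CPM in Tsc1/p62Δhep, against 222, 187 and 172 CPM in Tsc1Δhep. Its groups touch at 222 CPM and overlap with library totals, and its log2 fold change of 0.48 ± 0.23 did not pass (adjusted p 0.152).

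Slc2a2 had 466, 424 and 374 CPM in Tsc1/p62Δhep, against 331, 215 and 282 CPM in Tsc1Δhep. The groups did not overlap with TMM and did with library totals. The change was 0.61 ± 0.24 on the log2 scale. It missed the threshold with edgeR (adjusted p 0.104) and passed it with DESeq2 (adjusted p 0.0485).

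Both glycogen genes rose. Gys2 had 408, 413 and 394 CPM in Tsc1/p62Δhep, against 66.1, 111 and 182 CPM in Tsc1Δhep. The Tsc1/p62Δhep libraries lay close together, at 405 ± 9.66 CPM (SD, n = 3), and the Tsc1Δhep libraries were spread, at 120 ± 58.6 CPM. The rise was 3.38-fold (log2 fold change 1.76 ± 0.37, adjusted p 0.0139 by edgeR). The call was lost without Tsc1/p62Δhep library 1 (adjusted p 0.0573) or library 2 (0.0552), or without Tsc1Δhep library 2 (0.0674).

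Pygl had 553, 614 and 552 CPM in Tsc1/p62Δhep, against 144, 119 and 186 CPM in Tsc1Δhep, with no overlap. It rose 3.84-fold (log2 fold change 1.94 ± 0.25, adjusted p 0.00266 by edgeR), under all 14 alternatives. The coactivator gene Ppargc1a had 34.2, 20.4 and 27.1 CPM in Tsc1/p62Δhep, against 25.4, 22.4 and 18.9 CPM in Tsc1Δhep. With TMM it is the 1 gene of the 10 whose groups overlapped. Its log2 fold change of 0.29 ± 0.25 did not pass (adjusted p 0.421 by edgeR) and was -0.05 when libraries were scaled by their totals without TMM.

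Markers of liver cell types moved in the same comparison, and their part in the changes of these genes was not tested. Their calls are read against 9.25% of all genes higher and 14.9% lower. The summed level of 12 hepatocyte markers was 116655 to 148938 CPM in Tsc1/p62Δhep, against 64320 to 105884 CPM in Tsc1Δhep (3 of 12 rose, median log2 fold change 0.41, or 0.07 with library totals). In bulk liver, fewer cells of a type and less RNA per cell cannot be told apart. The periportal zone is where gluconeogenesis is known to be strongest. Its 9 markers, among them the cytochrome gene Cyp2f2, the urea cycle gene Cps1 and the glutaminase gene Gls2, summed to 10080 to 14316 CPM in Tsc1/p62Δhep, against 5874 to 8763 CPM in Tsc1Δhep (6 rose and 1 fell). The 10 pericentral markers summed to 15854 to 16040 CPM in Tsc1/p62Δhep, against 197 to 2102 CPM in Tsc1Δhep (6 rose and 0 fell). The sums of both zones were thus higher in Tsc1/p62Δhep, though 1 periportal marker fell. With library totals 4 of 9 periportal markers rose and 1 fell, and 5 of 10 pericentral markers rose and 0 fell.

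Cholangiocyte and progenitor markers summed to 85.1 to 134 CPM in Tsc1/p62Δhep, against 759 to 5260 CPM in Tsc1Δhep, and 3 of 7 tested fell. Macrophage markers summed to 126 to 142 CPM in Tsc1/p62Δhep, against 293 to 429 CPM in Tsc1Δhep, and 5 of 10 fell. Stellate and fibroblast markers overlapped in sum, at 188 to 251 CPM in Tsc1/p62Δhep and 71.8 to 365 CPM in Tsc1Δhep, though 5 of 10 fell. Of 8 endothelial markers 1 fell, close to the 14.9% of all genes called lower. Both neutrophil markers tested fell, with low sums over the list of 0.283 to 0.714 CPM in Tsc1/p62Δhep and 1.63 to 9.92 CPM in Tsc1Δhep, with Elane at 0 in Tsc1/p62Δhep. None of the T and NK cell markers was high enough to test, and the 1 B cell marker tested did not pass.

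The comparison of p62Δhep with p62F/F shows the same genes in hepatocytes that kept Tsc1. None of the 10 passed the test, 0 of 10 also had an unadjusted p below 0.05, and DESeq2 called 0 of 10. Over all 12567 genes 0.0159% were called by edgeR, 8.12% had an unadjusted p below 0.05 and DESeq2 called 1.36%. The groups overlapped for each of the 10 genes, where 12.8% of all genes had groups that did not overlap, 6.17% higher and 6.65% lower. Their median log2 fold change was -0.04, beside 0.00 over all genes.

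The 95% intervals show which sizes these 3 against 3 libraries leave possible. For Pck1, with 1399, 1218 and 1400 CPM in p62Δhep against 1960, 1254 and 1532 CPM in p62F/F, the log2 fold change was -0.24, with an interval of -0.76 to 0.28 and an adjusted p of 0.814. For Pck2, with 3.32, 3.66 and 5.03 CPM in p62Δhep against 3.54, 7.03 and 6.77 CPM in p62F/F, it was -0.53, with an interval of -1.26 to 0.20 (adjusted p 0.709). Both intervals end well short of the values seen in Tsc1-deleted liver.

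G6pc varied widely in p62Δhep, with 370, 271 and 131 CPM, against 245, 176 and 158 CPM in p62F/F. Its log2 fold change of 0.42 had an interval of -0.43 to 1.26 (adjusted p 0.800). Slc2a2 had 198, 64.1 and 97.3 CPM in p62Δhep, against 116, 215 and 148 CPM in p62F/F, and its interval was the widest of the 10, at -1.38 to 0.54 around -0.42 (adjusted p 0.826). Libraries of both groups were interleaved for these genes.

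The glycogen genes and Fbp1 were also interleaved. Pygl had 464, 386 and 347 CPM in p62Δhep, against 408, 424 and 408 CPM in p62F/F (log2 fold change -0.05, interval -0.42 to 0.32). Gys2 had 121, 61.8 and 70.9 CPM in p62Δhep, against 80.7, 129 and 85.5 CPM in p62F/F (-0.22, interval -0.90 to 0.46). Fbp1 had 922, 919 and 892 CPM in p62Δhep, against 1050, 730 and 814 CPM in p62F/F (0.08, interval -0.37 to 0.52).

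For Pcx, Slc37a4 and Ppargc1a the log2 fold changes were 0.06, 0.12 and -0.03, with interval bounds between -0.48 and 0.47 over the 3 genes. For Fbp1, Gys2, Pygl, Pcx, Slc37a4 and Ppargc1a the sign turned when 1 library or another was left out, and for none of them did a call arise. These intervals cover the spread between libraries and do not show that the groups were alike.

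Whether the effect of p62 differed between the Tsc1 backgrounds was tested as the difference of the 2 log2 fold changes in 1 model of all 12 libraries. The difference was higher for 5 of 10 genes and lower for 1 of 10, the same genes as in Tsc1-deleted liver, where 6.76% of 13231 genes were called higher and 9.32% lower, 16.1% in all. The median of the 10 was 1.15, beside -0.07 over all genes. Pygl had a difference of 1.98 ± 0.28 (adjusted p 0.00175 by edgeR) and Pck2 one of -2.995 ± 0.49 (0.0032), and both calls held under all 19 alternatives tried.

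The other 4 calls were less firm. The difference was 2.44 ± 0.68 for Pck1 (adjusted p 0.0310 by edgeR), 1.80 ± 0.54 for G6pc (0.0431), 1.96 ± 0.50 for Gys2 (0.0221) and 1.28 ± 0.32 for Fbp1 (0.0202). Of the 19 alternatives, 9 ended the call of Pck1, 10 that of G6pc, 8 that of Gys2 and 4 that of Fbp1, with adjusted p-values up to 0.0747, 0.0968, 0.0663 and 0.0755 for the 4 genes in that order. The direction held in each alternative. The calls ended without p62F/F library 1 for Pck1 (0.0699), G6pc (0.0968) and Fbp1 (0.0526), and without p62Δhep library 3 for Pck1 (0.0696), G6pc (0.0794), Gys2 (0.0622) and Fbp1 (0.0529), which left 2 and 1 of the genes called higher.

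Further libraries ended single calls in that model. Those of Tsc1/p62Δhep did so for Pck1 (library 1 at 0.0674 and library 3 at 0.0603), G6pc (library 1 at 0.0688 and library 3 at 0.0880) and Gys2 (library 1 at 0.0511 and library 2 at 0.0505). Tsc1Δhep library 2 did so for G6pc (0.0948) and Gys2 (0.0521). p62Δhep library 1 did so for Pck1 (0.0508), and p62Δhep library 2 for Pck1 (0.0747), G6pc (0.0820) and Gys2 (0.0592). p62F/F library 2 did so for G6pc (0.0724) and Gys2 (0.0598), and p62F/F library 3 for Pck1 (0.0546) and G6pc (0.0557).

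Slc37a4, Pcx and Ppargc1a had differences of 0.36, 0.34 and 0.31 with adjusted p-values of 0.360, 0.375 and 0.516. Slc2a2 had a difference of 1.02 ± 0.51 (adjusted p 0.185 by edgeR). Without p62Δhep library 1, in which Slc2a2 was highest of its group, its difference was 1.60 and passed (adjusted p 0.0256).

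**Figure D2:**
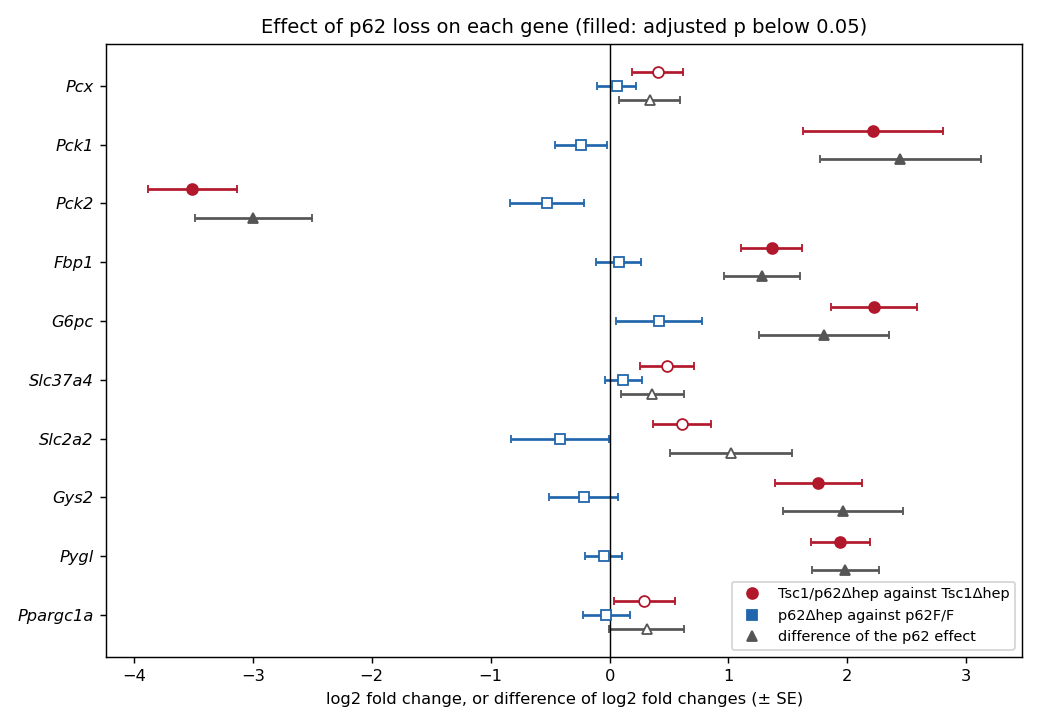
Log2 fold change (x axis, ± SE) of each of the 10 genes in Tsc1/p62Δhep against Tsc1Δhep (circles) and in p62Δhep against p62F/F (squares), with the difference of the p62 effect (triangles); filled marks had an adjusted p below 0.05 by edgeR. The circles and triangles of Pck1, Fbp1, G6pc, Gys2 and Pygl lie right of 0 and those of Pck2 lie left, while the squares lie between -0.53 and 0.42.

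Levels in all 4 groups were set side by side without a test, because Tsc1 genotype and table cannot be told apart. Per kilobase of transcript, Pck1 had the highest mean of the 10 in 3 groups and Fbp1 in p62Δhep. Pck1 had 1700 CPM per kb in Tsc1/p62Δhep, 366 in Tsc1Δhep, 503 in p62Δhep and 595 in p62F/F. Fbp1 had 867, 337, 616 and 584 CPM per kb in the same order of groups. Ppargc1a and Pck2 had the lowest means of the 10 in each of the 4 groups. Pck2 had 0.976 CPM per kb in Tsc1/p62Δhep, 11.1 in Tsc1Δhep, 1.18 in p62Δhep and 1.70 in p62F/F, and Ppargc1a had 4.21, 3.44, 1.26 and 1.29 in the same order of groups.

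For Pck1, Fbp1 and Pygl the highest mean belonged to Tsc1/p62Δhep and the lowest to Tsc1Δhep, and Tsc1-intact livers lay between. Mean Pygl was 573 CPM in Tsc1/p62Δhep, 149 in Tsc1Δhep, 399 in p62Δhep and 413 in p62F/F. The Tsc1/p62Δhep libraries of Pygl lay above all others and the Tsc1Δhep libraries below all others, with overlap only between p62Δhep and p62F/F. Fbp1 followed the same pattern, at 1284, 499, 911 and 865 CPM. For Pck1 the Tsc1/p62Δhep libraries lay above the rest, and the ranges of the other 3 groups overlapped.

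Gys2 was high in Tsc1/p62Δhep alone, at 405 CPM, against 120 CPM in Tsc1Δhep, 84.5 in p62Δhep and 98.3 in p62F/F, the last 3 of which overlapped. G6pc stood at 482, 103, 258 and 193 CPM in the same order of groups. The ranges of neighbours overlapped there except between p62F/F and Tsc1Δhep, which was lowest. Pcx varied least, at 604, 457, 553 and 531 CPM, and each pair of neighbours overlapped.

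Slc37a4, Slc2a2 and Ppargc1a were instead highest in both Tsc1-deleted groups. Ppargc1a stood at 27.2 CPM in Tsc1/p62Δhep and 22.2 in Tsc1Δhep, which overlapped, against 8.16 in p62Δhep and 8.30 in p62F/F, which overlapped with each other and lay below. Slc37a4 stood at 271 and 194 CPM in Tsc1/p62Δhep and Tsc1Δhep, against 105 and 97.0 in p62Δhep and p62F/F, with overlap only between the last 2. Slc2a2 stood at 421, 276, 120 and 160 CPM, with overlap from Tsc1Δhep downward. Pck2 was high in Tsc1Δhep alone, at 37.8 CPM, against 3.32 in Tsc1/p62Δhep, 4.01 in p62Δhep and 5.78 in p62F/F, which overlapped. The order of the 4 means was the same for 8 of 10 genes with library totals and for 10 of 10 with TMM over all 12 libraries.

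The balance of 2 genes within a library does not depend on the scaling of that library. Per length, Pck2 made up 0.0519%, 0.0529% and 0.0645% of the sum of Pck1 and Pck2 in the Tsc1/p62Δhep libraries, against 6.42%, 2.12% and 3.27% in the Tsc1Δhep libraries. The groups were far apart, and the exact two-sided permutation test gave p = 0.1, the smallest that 3 against 3 libraries allow. The share averaged 0.234% ± 0.0475 in p62Δhep and 0.308% ± 0.151 in p62F/F (SD, n = 3, exact permutation p = 0.5). In all 12 libraries most of the sum was Pck1.

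**Figure D3:**
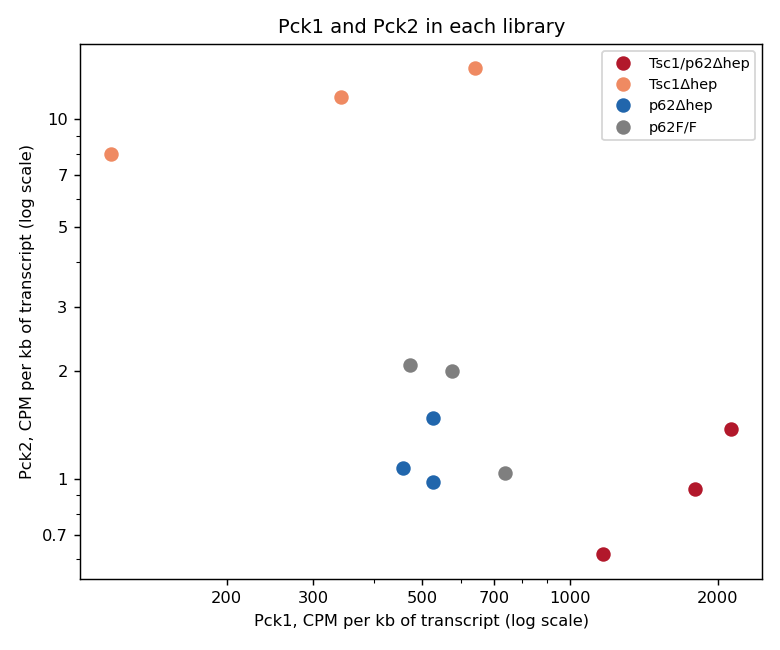
Pck2 (y axis) against Pck1 (x axis), both in CPM per kilobase of transcript on log axes, with 1 point per library. The 3 Tsc1Δhep libraries lie at the top, between 7.99 and 13.8 for Pck2, and the 3 Tsc1/p62Δhep libraries at the lower right, above 1166 for Pck1.

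The ratio of G6pc to Slc37a4 per length was 1.37, 1.34 and 2.39 in Tsc1/p62Δhep, against 0.539, 0.444 and 0.566 in Tsc1Δhep, with no overlap (exact permutation p = 0.1, two-sided). It averaged 2.40 ± 1.13 in p62Δhep and 1.92 ± 0.180 in p62F/F (SD, n = 3, exact permutation p = 0.5). The ratio of Pck1 to Pcx was 12.5, 7.92 and 13.6 in Tsc1/p62Δhep, against 1.05, 6.34 and 2.69 in Tsc1Δhep, with no overlap (exact permutation p = 0.1). It averaged 3.72 ± 0.563 in p62Δhep and 4.51 ± 0.683 in p62F/F (exact permutation p = 0.2, n = 3).

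The balance of the glycogen genes Pygl and Gys2 was read in the same way. The ratio of Pygl to Gys2 was 1.28, 1.40 and 1.32 in Tsc1/p62Δhep, against 2.04, 1.00 and 0.958 in Tsc1Δhep, which lay on both sides and spread too widely for a change of balance to be seen (1.33 ± 0.0630 in Tsc1/p62Δhep and 1.34 ± 0.614 in Tsc1Δhep, SD, n = 3, exact permutation p = 1). It averaged 4.70 ± 1.13 in p62Δhep and 4.11 ± 0.895 in p62F/F (SD, n = 3, exact permutation p = 0.5). Every library that kept Tsc1 lay above every library that lacked it, but Tsc1 genotype and table cannot be told apart.

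**Figure D4:**
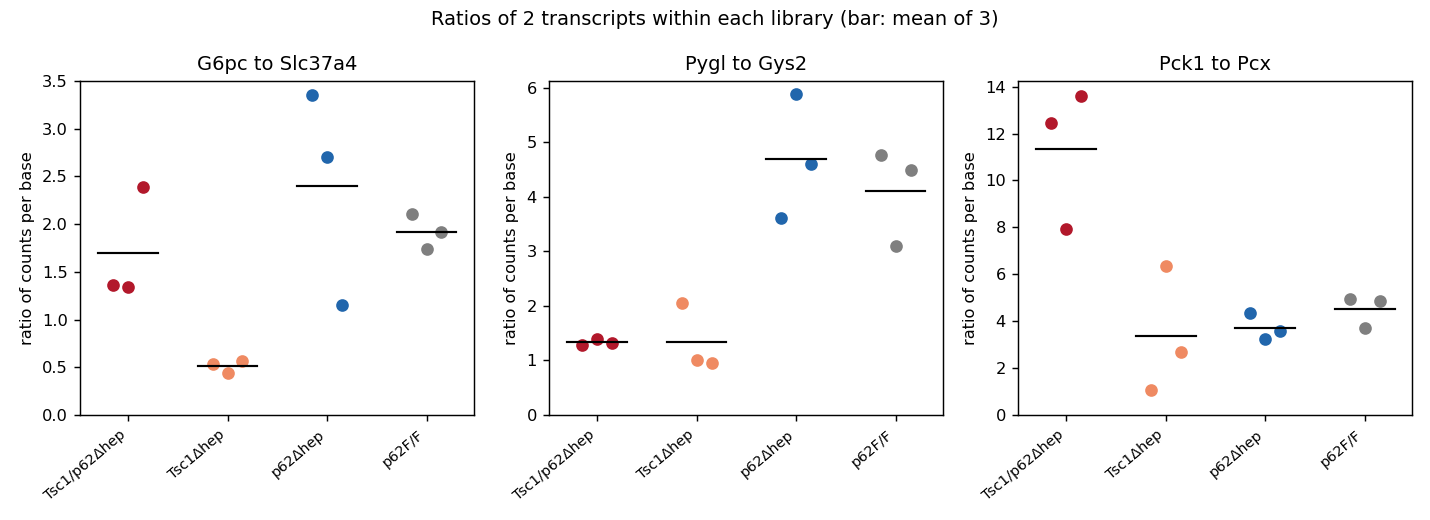
Ratio of 2 genes' counts per base of transcript in each library (points) with the mean of 3 (bar), by group, on axes that start at 0. G6pc to Slc37a4 is lowest in Tsc1Δhep, at 0.566 or below, Pygl to Gys2 is at 2.04 or below in both Tsc1-deleted groups, and Pck1 to Pcx is highest in Tsc1/p62Δhep.

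The other genes of the pathway were read from lists chosen by function. Of 20 other genes of gluconeogenesis and substrate entry tested in Tsc1/p62Δhep against Tsc1Δhep, 2 rose and 1 fell, and their median log2 fold change was -0.13 (-0.48 with library totals, where 2 rose and 3 fell). These lists are read against the same 9.25% higher and 14.9% lower over all genes. Aqp9, a channel for glycerol, rose 3.19-fold to 693 ± 110 CPM in Tsc1/p62Δhep, against 218 ± 32.5 CPM in Tsc1Δhep (SD, n = 3, adjusted p 0.00416 by edgeR). Got1, an aminotransferase of the cytosol, had 412 CPM in Tsc1/p62Δhep and 139 CPM in Tsc1Δhep (adjusted p 0.0182), and G6pc3, the ubiquitous glucose-6-phosphatase, had 4.64 and 9.92 CPM (0.0215). The calls of Got1 and G6pc3 were lost without Tsc1/p62Δhep library 1 (0.0674 and 0.110) or library 2 (0.0568 and 0.107) and without Tsc1Δhep library 2 (0.0658 and 0.0656), while that of Aqp9 held.

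Of 22 other glycogen genes, 3 rose and 3 fell, with a median of 0.41 (0.04 with library totals, where 1 rose and 6 fell). Pygb, the brain form of glycogen phosphorylase, fell 20.8-fold to 3.85 ± 0.621 CPM in Tsc1/p62Δhep, against 80.1 ± 51.2 CPM in Tsc1Δhep (adjusted p 0.00229 by edgeR), opposite to the liver form Pygl. Its difference of the p62 effect was -2.83 (adjusted p 0.0199). Ppp1r3g, a subunit that brings protein phosphatase 1 to glycogen, had 7.03 CPM in Tsc1/p62Δhep and 0.195 CPM in Tsc1Δhep, from sums of 313 and 21 counts (adjusted p 0.0126). Its call was lost without Tsc1/p62Δhep library 1 (0.0555) or library 2 (0.0523). The phosphoglucomutase symbol Pgm1 had 5.86 CPM in Tsc1/p62Δhep and 27.7 CPM in Tsc1Δhep (adjusted p 0.0177, lost without Tsc1/p62Δhep library 1 at 0.0703 or library 2 at 0.0768). Annotation releases have exchanged the symbols Pgm1 and Pgm2, so which enzyme each row stands for is uncertain.

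All 23 genes of hormone signalling and transcription tested had a positive log2 fold change in Tsc1/p62Δhep against Tsc1Δhep with TMM, and 21 of 23 with library totals, which shift the median of all genes from -0.05 to -0.40. With TMM 6 of the 23 passed, all of them higher, and the list's median was 0.82. Foxo1, the transcription factor that insulin restrains, rose 3.47-fold to 101 ± 22.4 CPM in Tsc1/p62Δhep, against 29.3 ± 10.3 CPM in Tsc1Δhep (SD, n = 3, adjusted p 0.00853 by edgeR). Foxo1 kept its call under all 14 alternatives, and its difference of the p62 effect was 1.81 (adjusted p 0.00787). The insulin receptor substrate Irs1 had 25.8 CPM in Tsc1/p62Δhep and 11.4 CPM in Tsc1Δhep (adjusted p 0.0119, lost without Tsc1/p62Δhep library 1 at 0.0635 or Tsc1Δhep library 2 at 0.0536). Klf15, a transcription factor of fasting liver, had 259 and 105 CPM in the same order (adjusted p 0.0140, lost without Tsc1/p62Δhep library 1 at 0.0646).

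Of 18 genes of the fasting and feeding responses, 3 rose and 3 fell, with a median of 0.65 (0.27 with library totals, where 0 rose and 3 fell). The log2 fold change was positive for 12 of the 18, and for 11 with library totals. The 3 genes described here were picked by smallest p and are those that fell. Fgf21, a hormone that fasting and amino acid stress induce in liver, fell 35.7-fold, with 2.47 CPM or less in Tsc1/p62Δhep, against 43.4 ± 6.45 CPM in Tsc1Δhep (SD, n = 3, adjusted p 0.00249 by edgeR). Trib3, a pseudokinase induced by ATF4, had a mean of 12.0 CPM in Tsc1/p62Δhep and 85.6 CPM in Tsc1Δhep (adjusted p 0.00354 by edgeR). Both calls held under all 14 alternatives. Igfbp1, which insulin represses, had 131 CPM in Tsc1/p62Δhep and 616 CPM in Tsc1Δhep (adjusted p 0.0276), a call lost without Tsc1/p62Δhep library 1 (0.113) or library 2 (0.0838), or Tsc1Δhep library 1 (0.0502) or library 2 (0.0659).

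Over these 4 lists together 14 genes rose and 7 fell, and those numbers moved more than those of the 10 enzymes and transporters. They were 2 and 3 without Tsc1/p62Δhep library 1, 8 and 3 without library 2 and 7 and 7 without library 3. They were 5 and 5 without Tsc1Δhep library 2 and 34 and 11 without Tsc1Δhep library 3. Of the 21 genes 5 kept their call in each of the 14 alternatives. In p62Δhep against p62F/F none of the genes of the 4 lists passed by edgeR, and 4 had an unadjusted p below 0.05. By list these were 1 of 21, 2 of 20, 0 of 23 and 1 of 19 genes tested, where 8.12% of all genes did so. DESeq2 called 1 gene of the glycogen list lower, where it called 1.36% of all genes. With p62F/F library 1 left out, edgeR called 1 gene of the 4 lists lower.

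**Figure D5:**
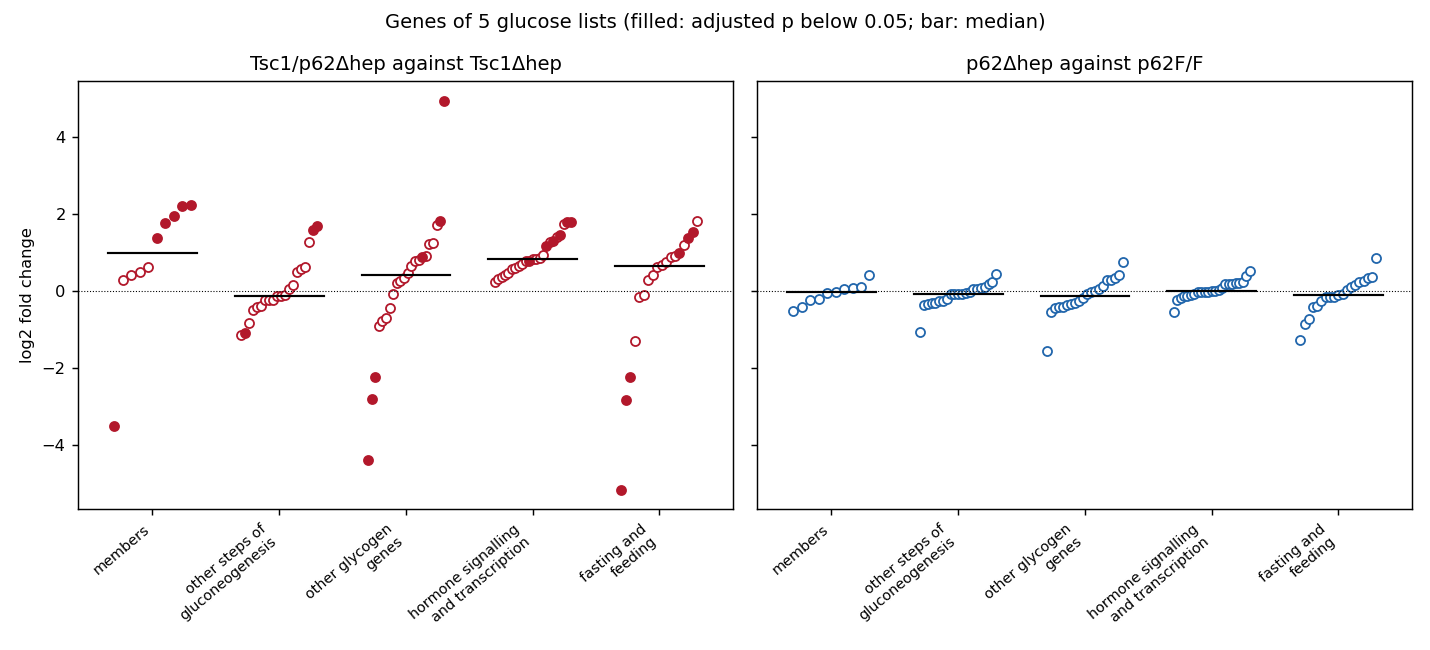
Log2 fold change (y axis) of each gene tested in the 10 genes described here (members) and in 4 further lists, in Tsc1/p62Δhep against Tsc1Δhep (left) and p62Δhep against p62F/F (right); filled points had an adjusted p below 0.05 by edgeR and bars are medians. On the left all 23 hormone signalling and transcription genes lie above 0 (21 with library totals), with a median of 0.82, and on the right no point is filled.

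Across the 12 libraries, centred on the mean of each table, the log2 levels of the 45 pairs of the 10 genes had a median Pearson r of 0.56, from -0.95 for Pck2 with Pygl to 0.93 for Fbp1 with Pygl. Centred on the mean of each group instead, the median was 0.02, from -0.45 for Pcx with Slc2a2 to 0.69 for Pck1 with Fbp1. Points share a library and its scaling, so these values are a description. Most of the correlation thus lay between groups rather than among libraries of 1 group.

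Genes with the most similar pattern were listed for 5 of the 10 genes, by Pearson r of log2(CPM + 1) centred on each table's mean over 12 libraries, among 12100 genes kept in both tables. For Pck1 they were Gm4788, Bend7 and Serpina1c (r of 0.97 each). For G6pc they were Kbtbd7 (0.97), Rfwd2 (0.95) and Otud3 (0.94). For Gys2 they were Angel1, Acsm5 and Zbtb44 (0.99 each), and for Pygl they were Rab10, Smim13 and the hepatic lipase gene Lipc (0.99 each). For Ppargc1a the highest were Pptc7 (0.85), Arl5a and Lrrc58 (0.83 each). Differences between the groups of a table enter these values, so they are a description, and shared regulation was not tested.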

How the data were processed

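The authors deposited 2 tables of gene counts, 1 with Tsc1/p62Δhep and Tsc1Δhep and 1 with p62Δhep and p62F/F, each with 6 libraries and 23420 genes named by symbol. Values were whole numbers with unequal totals, so they were taken as counts with no normalization. Per the labels' protocols, RNA came from frozen liver by Trizol, a kit that marks strand was used after poly(A) selection, and either of 2 Illumina instruments, single-end or paired-end, was used without saying which for which library. For the aligner, counter, annotation and strand setting: not given in the sources used here. A human build, hg19, is named by the submitters' processing notes, while the symbols are those of mouse, so no coordinates of that build were used. Of the symbols 99.3% matched a current or older symbol of mouse RefSeq, and 27 had been turned into dates. No exon of another gene overlapped those of the 10 genes in the GENCODE M21 basic annotation of GRCm38.

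Samples were grouped and numbered by their titles. No 2 libraries of a group agreed within sampling noise. Genes were kept with edgeR's filterByExpr (minimum count 10, total 15), scaled by TMM and tested with edgeR 4.0.16 (quasi-likelihood, Benjamini-Hochberg, adjusted p below 0.05) in R 4.3.3, each comparison within its table, and the difference of the p62 effect in 1 model of 12 libraries. SE is the size of the log2 fold change divided by the root of F. The fit was tested on simulated data. Alternatives were DESeq2 1.42.0, limma 3.58.1 on log2(CPM + 1), DESeq2 size factors, no filter, a replicate block, all 12 libraries in 1 fit, leaving out libraries, and, added after seeing the data, library totals without TMM. Levels per length used the transcript with a consensus coding sequence ranked first by APPRIS. Ratios were compared with scipy 1.17.1.

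The 10 genes and the 4 further glucose lists were chosen with earlier results of these data known, as were the cell type lists. The rule for named genes took the 10 genes, Sqstm1 and Tsc1, the 3 genes with the smallest p among those called with a mean of at least 50 counts in each list between the groups without Tsc1, glucose list genes called elsewhere, and the 3 genes most like Pck1, G6pc, Gys2, Pygl and Ppargc1a. A few genes of these lists are counted but not reported by name here.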

Additional observations from a re-analysis of the deposited data

Results flagged for a closer look

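Each group had 3 libraries, too few for a test of single outlying libraries. The values below are differences of the p62 effect, the log2 fold change of Tsc1/p62Δhep against Tsc1Δhep minus that of p62Δhep against p62F/F, singled out because the difference itself passed edgeR's quasi-likelihood test over all 13231 genes, of which 16.1% passed.

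Among the 10 genes the values were 2.44 for Pck1, -2.995 for Pck2, 1.80 for G6pc, 1.28 for Fbp1, 1.96 for Gys2 and 1.98 for Pygl. The targeted gene Sqstm1 had -1.52. Its level without p62 was alike in both backgrounds, 17.1 CPM in Tsc1/p62Δhep and 16.6 CPM in p62Δhep, and its level with p62 was 1000 CPM in Tsc1Δhep and 339 CPM in p62F/F.

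In the further glucose lists the glycerol channel Aqp9 had 1.74. Among glycogen genes Pgm1 had -1.99, Pgm2 0.96, Pygb -2.83, the laforin gene Epm2a 2.35, Ppp1r3d -2.71 and Ppp1r3g 5.41. The value of Ppp1r3g rests on 8 counts over the p62Δhep libraries and 11 over p62F/F. Among hormone signalling and transcription genes Irs1 had 1.21, the phosphoinositide 3-kinase subunit gene Pik3r1 1.80, Foxo1 1.81 and Klf15 1.54. Fgf21 had -5.00 and Srebf1, a regulator of lipid synthesis, 2.05. Of the zonal markers, 4 of 9 periportal and 5 of 10 pericentral ones were called higher for this difference, and 0 lower. Those looked up by name were Cyp2f2 (1.73), Cps1 (2.47), Glul (2.26) and Cyp1a2 (5.55), a picked part of the markers called. Of the 14 genes of the glucose lists called, Aqp9, Fgf21 and Foxo1 kept the call under all 19 alternatives.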

How the results depend on the processing

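In Tsc1/p62Δhep against Tsc1Δhep the number of the 10 genes called higher ran from 3 to 5 when 1 library was left out, and from 3 to 6 over all 14 alternatives, 6 with DESeq2. The number called lower was 1 throughout. For the difference of the p62 effect the number higher ran from 1 to 5 when 1 library was left out, was 2 with library totals without TMM and 3 without both Tsc1Δhep library 3 and Tsc1/p62Δhep library 1, chosen because within their groups the first had the highest Tsc1 and the second the most of the ribosomal RNA gene Rn45s, 1.21% of its counts beside 0.0872% and 0.181% in its group. The 1 lower call held in all 19. In p62Δhep against p62F/F 0 were called in each of 13 alternatives, where the calls over all genes ran from 0 to 33 higher and 1 to 138 lower.

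Same-numbered libraries did not deviate together, with correlations of -0.391, -0.518 and 0.023 for p62Δhep with p62F/F and of -0.087, -0.088 and -0.128 for Tsc1/p62Δhep with Tsc1Δhep, so the numbers were not taken as pairs. Between different numbers the correlations ran from -0.204 to 0.532 for p62Δhep with p62F/F, highest for p62Δhep library 1 with p62F/F library 2. They ran from -0.033 to 0.109 for Tsc1/p62Δhep with Tsc1Δhep. What such libraries share was not tested. With a replicate block 4 genes were higher in Tsc1/p62Δhep against Tsc1Δhep (Pck1 at an adjusted p of 0.0541), and for the difference 2 were higher.

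Scaling by library totals, tried after seeing the data, moved the all-gene median of Tsc1/p62Δhep against Tsc1Δhep to -0.399, beside -0.049, and the calls to 576 higher and 3337 lower, so 14.7% of calls were higher, beside 38.2%. For the difference the median was -0.394 and 14.9% of calls were higher, beside 42.0%. With it 5 of the 10 genes were called higher in Tsc1/p62Δhep, and Ppargc1a turned to -0.05, and to -0.0175 for the difference.

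In p62Δhep against p62F/F log2 fold changes that turned sign when 1 library was left out ran from -0.1314 to 0.1174 for Ppargc1a (0.09 without p62F/F library 1), -0.1697 to 0.0424 for Pygl, -0.0347 to 0.2428 for Fbp1, -0.5627 to 0.0238 for Gys2, -0.0022 to 0.2429 for Slc37a4 and -0.0096 to 0.1639 for Pcx. The cause of these changes was not tested. With 3 libraries a group, changes within the intervals given for each gene could not be told from none.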
